A study of Homo sapiens with 4 samples.

Results

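This account concerns the FOXO transcription factors and insulin receptor signalling in MHCC-97H, a human hepatocellular carcinoma cell line. The genes were chosen by symbol: the factors FOXO1, FOXO3 and FOXO4, the receptors INSR and IGF1R, the substrates IRS1 and IRS2, and the FOXO-responsive or related genes TXNIP, PIK3IP1 and SGK1. Of these 10 genes, 9 have a row in the table of 33478 genes, and PIK3IP1 was not analysed here. Sequencing of total RNA in 4 TruSeq libraries gave TPM, a length-corrected abundance of each transcript. MHCC-97H cells carried an shRNA against UCK2 (SH-UCK2, genotype UCK2 knockdown) in 2 libraries and a control shRNA (SH-NC, genotype control) in 2 libraries, and no further treatment, dose or time is given. A letter B in both UCK2 shRNA titles is not explained, and whether it marks a single hairpin is not stated. Action through UCK2 and off-target action therefore cannot be told apart. The descriptions disagree with the titles for 2 libraries, naming UCK3 for UCK2 shRNA replicate 2 and a differently numbered line for control replicate 2, and groups follow the titles. Separate cultures are not stated, so each p-value measures only the spread between these libraries, which may be technical. In bulk RNA of this kind, fewer cells with a transcript and less of it per cell cannot be told apart.

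Insulin and the insulin-like growth factors bind the receptor tyrosine kinases encoded by INSR and IGF1R, which phosphorylate the docking proteins IRS1 and IRS2 and so recruit PI3-kinase. The AKT and SGK kinases downstream phosphorylate FOXO proteins, which then bind 14-3-3 proteins and leave the nucleus, so that FOXO target genes are transcribed less. In liver, this route turns down gluconeogenic genes after feeding, and IRS2 is itself a FOXO target there. The activity of FOXO proteins is set largely by phosphorylation and location, which an mRNA level does not report.

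The sequences below are shown because they hold the letters by which FOXO and insulin-responsive promoters are usually recognised. RefSeq promoters of build GRCh38.p14, 250 bases before to 50 after each start site, were matched by symbol for all 9 genes with a row, 15 promoters in all. The FOXO core GTAAACA, searched on both strands, was found in 2 of the 15, of TXNIP and FOXO4, against 3.42% of 35116 promoters of this length. The insulin response element CAAAACAA was found in 1 of the 15, of IRS2, against 1.68% of all promoters. A pair of E-box-like CACGNG sites 5 bases apart, the form of the carbohydrate response element, was found in 1, of TXNIP, against 0.057% of all promoters. None of the 3 motifs overlaps another in these promoters, and a match describes the letters only. Capitals mark the matches.
TXNIP, chr1:145996530-145996829, minus strand: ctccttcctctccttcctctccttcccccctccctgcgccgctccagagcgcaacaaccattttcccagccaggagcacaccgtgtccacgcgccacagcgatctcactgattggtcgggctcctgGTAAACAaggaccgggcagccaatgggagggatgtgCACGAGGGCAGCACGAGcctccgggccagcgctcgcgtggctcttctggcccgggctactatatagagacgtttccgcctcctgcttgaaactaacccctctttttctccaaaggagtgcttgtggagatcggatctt
IRS2, chr13:109786534-109786833, minus strand: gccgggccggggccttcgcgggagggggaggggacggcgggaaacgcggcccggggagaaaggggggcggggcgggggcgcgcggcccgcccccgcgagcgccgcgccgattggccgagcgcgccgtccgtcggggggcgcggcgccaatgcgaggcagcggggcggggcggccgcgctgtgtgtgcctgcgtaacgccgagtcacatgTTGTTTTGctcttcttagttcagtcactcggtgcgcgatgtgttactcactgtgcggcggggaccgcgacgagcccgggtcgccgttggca
FOXO4, chrX:71095601-71095900, plus strand: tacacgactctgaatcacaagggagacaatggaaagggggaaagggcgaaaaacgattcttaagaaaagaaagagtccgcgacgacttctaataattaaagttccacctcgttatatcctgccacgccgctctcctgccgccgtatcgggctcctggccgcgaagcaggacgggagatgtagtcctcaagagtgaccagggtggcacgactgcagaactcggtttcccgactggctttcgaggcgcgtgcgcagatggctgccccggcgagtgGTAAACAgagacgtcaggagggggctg
In TXNIP the FOXO core lies 124 to 118 bases upstream of the start site and the E-box pair 88 to 72 bases upstream. The IRS2 element lies 41 to 34 bases upstream and reads on the opposite strand. The FOXO4 core lies 23 to 29 bases downstream of the RefSeq start at 71095851, which is outside the interval that the deposited table gives for FOXO4. The IRS2 RefSeq start, at 109786583, also lies outside the deposited interval for IRS2, which ends at 109786568.

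UCK2, the targeted gene, measured 120.5 and 67.8 TPM in UCK2 shRNA replicates 1 and 2, against 135.7 and 93.6 TPM in control replicates 1 and 2, so the groups overlapped (limma adjusted p = 0.640). Directions below therefore rest on the titles alone, and the libraries are those labelled UCK2 shRNA or control. Over the rows used, the columns summed to 643063 to 676811 TPM in UCK2 shRNA libraries and 850379 to 850534 TPM in control libraries. Among 14038 genes with a mean of at least 1 TPM, the median log2 difference was -0.22, and -0.01 after median-ratio scaling. Scaled values therefore stand beside the deposited ones. After scaling UCK2 measured 131.3 and 73.1 scaled TPM in UCK2 shRNA replicates 1 and 2. In control replicates 1 and 2 it measured 114.4 and 93.3 scaled TPM. The highest scaled value was in a UCK2 shRNA library, and the scaled log2 difference was -0.08. On the opposite strand, UCK2 is overlapped by the antisense gene RP11-525G13.2 and the protein-coding gene TMCO1. TMCO1 measured 56.9 and 49.6 TPM in UCK2 shRNA replicates 1 and 2, against 69.4 and 62.7 TPM in control replicates 1 and 2. The strand setting of the counting is unknown here, so UCK2 may share reads with these genes. Of 12 hepatocyte and hepatoma markers, 9 averaged at least 1 TPM. The summed level of all 12 was 2324 to 2677 TPM in UCK2 shRNA libraries and 3041 to 4133 TPM in control libraries, mostly KRT8 and KRT18. After scaling the sums overlapped, at 2504 to 2916 scaled TPM in UCK2 shRNA libraries and 2564 to 4120 scaled TPM in control libraries, and 8 of 9 markers lay below 0 with a median log2 difference of -0.24. In single genes, ALB averaged 23.5 TPM over the 4 libraries and APOB and EPCAM were below 1 TPM in each. The extraction text of the labels names retinas. Of 12 retina markers, 2 averaged at least 1 TPM, ABCA4 with a mean of 75.9 TPM and OPN1SW with 1.11 TPM. The defining photoreceptor genes CRX, GNAT1 and RCVRN lay at 0 to 0.254 TPM, and SAG, NRL, ARR3 and PDE6B reached 0.792 to 1.70 TPM in their highest library. The retina markers summed to 52.7 to 101.5 TPM in UCK2 shRNA libraries and 65.5 to 99.7 TPM in control libraries. Of 6 markers of other liver cells, 2 averaged at least 1 TPM, CD68 and PECAM1. The list summed to 65.8 to 70.7 TPM in UCK2 shRNA libraries and 70.9 to 76.0 TPM in control libraries. After scaling these sums overlapped, at 71.7 to 76.1 scaled TPM in UCK2 shRNA libraries and 59.8 to 75.7 scaled TPM in control libraries. The part of these markers in the results below was not tested. TPM keeps no sequencing depth, so no counting interval is given.

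None of the 9 genes was called different between the libraries labelled UCK2 shRNA and control, where few or no genes of the whole table were. By limma on log2(TPM + 1), with Benjamini-Hochberg adjustment over all 14038 genes, 0 of 9 passed the threshold of 0.05 as deposited or after scaling, and 0 of 9 had an unadjusted p under 0.05. In the background, 0% of all genes passed in either direction as deposited, and after scaling 0.0641% passed as higher and 0% as lower. At an unadjusted p under 0.05, 1.38% of all genes were higher and 14% lower as deposited. The smallest adjusted p among the 9 was 0.466, of FOXO4, and 0.955 after scaling. The median log2 difference of the 9 was -0.17, close to the -0.22 of all genes tested, and 0.03 after scaling, where all genes stood at -0.01. Values of 8 of 9 lay below 0 as deposited and 4 of 9 after scaling, against 74.7% and 50.8% of all genes. With 2 libraries against 2, no exact permutation p can be smaller than 0.333, so none is given.

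The 9 genes were transcribed at low to moderate levels, from a mean of 1.18 TPM for IRS2 to 15.7 TPM for IRS1, where the median gene kept averaged 11.8 TPM. On the TPM scale, which is per length, the order of the means was IRS1, IGF1R, INSR, FOXO3, TXNIP, FOXO4, SGK1, FOXO1 and IRS2. Of the 8 neighbouring pairs in this order, 3 held in all 4 libraries: INSR above FOXO3, FOXO4 above SGK1, and FOXO1 above IRS2. The other 5 pairs changed places in at least 1 library, so their order was not beyond the spread. TXNIP stood above FOXO4 in only 1 library, and IRS1 above IGF1R in 2. The order within a library is not affected by scaling.

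**Figure D1:**
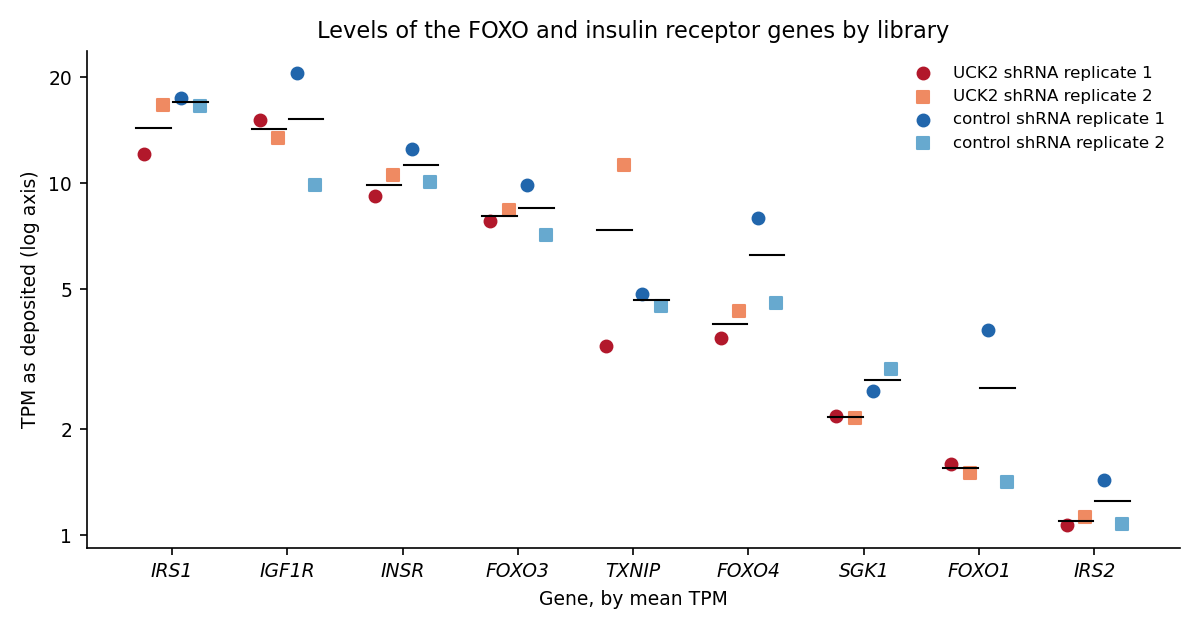
TPM as deposited (log axis) of the 9 genes, ordered by mean level, in each library; red and orange points are UCK2 shRNA replicates, blue points control replicates, and black bars group means. TXNIP stands high in UCK2 shRNA replicate 2 at 11.3 TPM, and FOXO1 and IGF1R stand high in control replicate 1 at 3.82 and 20.5 TPM.

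Among the transcription factors, FOXO3 was the most abundant and FOXO1 the least. FOXO1 (ENSG00000150907, chromosome 13, 40555667 to 40666597, minus strand of hg38) encodes the factor that drives gluconeogenic genes in liver. It measured 1.59 and 1.51 TPM in UCK2 shRNA replicates 1 and 2, against 3.82 and 1.41 TPM in control replicates 1 and 2. Control replicate 1 alone was high, and the UCK2 shRNA values lay between the controls. The FOXO1 log2 difference was -0.42 ± 0.40 (SE; limma adjusted p = 0.640), with a 95% interval of -1.36 to 0.52, and the scaled value was -0.25. Without control replicate 1 the FOXO1 log2 difference was 0.0788, on the other side of 0.

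FOXO3 (ENSG00000118689, chromosome 6, 108559835 to 108684774, plus strand) encodes a factor known for stress resistance and induction of cell death genes. FOXO3 measured 7.80 and 8.36 TPM in UCK2 shRNA replicates 1 and 2, against 9.87 and 7.14 TPM in control replicates 1 and 2. Both UCK2 shRNA values fell inside the range of the controls. The FOXO3 log2 difference was -0.05 ± 0.26 (SE; limma adjusted p = 0.948). After scaling FOXO3 measured 8.497 and 9.01 scaled TPM in UCK2 shRNA libraries and 8.32 and 7.12 scaled TPM in control libraries, with a log2 difference of 0.16 (95% interval -0.35 to 0.68, adjusted p = 0.962). FOXO3 was the 1 gene of the 9 whose groups did not overlap after scaling, against 16% of all genes higher and 15.5% lower without overlap. FOXO3 shares long stretches with the pseudogene FOXO3B, so its reads may not be told apart from those of that copy.

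FOXO4 (ENSG00000184481, X chromosome, 71096197 to 71103535, plus strand), whose product shares the forkhead domain and AKT sites of the others, measured 3.63 and 4.33 TPM in UCK2 shRNA replicates 1 and 2. FOXO4 measured 7.97 and 4.57 TPM in control replicates 1 and 2. Both UCK2 shRNA values lay below both controls, by a narrow margin for control replicate 2. The FOXO4 log2 difference was -0.51 ± 0.32 (SE; limma adjusted p = 0.466), with a 95% interval of -1.26 to 0.25. After scaling it was -0.31 (adjusted p = 0.955), and the groups overlapped. As deposited, FOXO4 and SGK1 were the 2 of 9 genes lower without overlap, and 0 of 9 were higher without overlap. In the background, 44.4% of all genes were lower and 5.46% higher without overlap as deposited.

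The receptors stood at similar levels. INSR (ENSG00000171105, chromosome 19, 7112255 to 7294034, minus strand), the insulin receptor, measured 9.17 and 10.5 TPM in UCK2 shRNA replicates 1 and 2, against 12.5 and 10.1 TPM in control replicates 1 and 2. Its log2 difference was -0.17 ± 0.24 (SE; limma adjusted p = 0.756), and 0.05 after scaling (95% interval -0.45 to 0.54). INSR was among the steadiest of the 9: its highest scaled value was 1.14 times its lowest.

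IGF1R (ENSG00000140443, chromosome 15, 98648971 to 98964530, plus strand), the receptor for insulin-like growth factors, measured 15.1 and 13.4 TPM in UCK2 shRNA replicates 1 and 2. In control replicates 1 and 2 it measured 20.5 and 9.90 TPM. The 2 controls lay on either side of both UCK2 shRNA values. The IGF1R log2 difference was -0.01 ± 0.33 (SE; limma adjusted p = 0.997), with a 95% interval of -0.79 to 0.78. After scaling it was 0.22. Without control replicate 1 it was 0.48, and without control replicate 2 it was -0.50. An antisense gene, RP11-654A16.3, overlaps IGF1R and measured 0.489 and 0.535 TPM in UCK2 shRNA libraries, against 1.22 and 1.03 TPM in control libraries. The strand setting of the counting is unknown here, so IGF1R and this partner may share reads.

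Of the docking proteins, IRS1 was at least 11.3 times as abundant as IRS2 in each library. IRS1 (ENSG00000169047, chromosome 2, 226731317 to 226799759, minus strand) measured 12.1 and 16.7 TPM in UCK2 shRNA replicates 1 and 2, against 17.4 and 16.6 TPM in control replicates 1 and 2. As deposited, UCK2 shRNA replicate 1 alone was low. After scaling IRS1 measured 13.2 and 17.9 scaled TPM in UCK2 shRNA replicates 1 and 2, against 14.7 and 16.5 scaled TPM in control replicates 1 and 2. Its log2 difference was -0.24 ± 0.23 (SE; limma adjusted p = 0.646), and -0.02 after scaling (95% interval -0.53 to 0.50). IRS2 (ENSG00000185950, chromosome 13, 109752698 to 109786568, minus strand), the hepatic docking protein whose promoter is shown above, measured 1.07 and 1.13 TPM in UCK2 shRNA libraries, against 1.43 and 1.07 TPM in control libraries. The IRS2 values overlapped, and its log2 difference was -0.10 ± 0.32 (SE; limma adjusted p = 0.910), or 0.03 after scaling. IRS2 averaged only just over the minimum of 1 TPM, where log2(TPM + 1) understates a change. An antisense gene that overlaps IRS2 was listed at 0 in all 4 libraries.

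After scaling, TXNIP had the largest log2 difference in size of the 9 genes, and 1 library set it. TXNIP (ENSG00000265972, chromosome 1, 145992435 to 145996600, minus strand) encodes thioredoxin-interacting protein, an arrestin-like protein that lowers glucose uptake and is induced by glucose through MondoA and ChREBP. It measured 3.45 and 11.3 TPM in UCK2 shRNA replicates 1 and 2, against 4.84 and 4.48 TPM in control replicates 1 and 2. UCK2 shRNA replicate 2 stood above every other library, while replicate 1 stood below both controls. The TXNIP log2 difference was 0.39 ± 0.46 (SE; limma adjusted p = 0.720; 95% interval -0.71 to 1.48), and 0.59 after scaling (95% interval -0.37 to 1.55, adjusted p = 0.955). Without UCK2 shRNA replicate 2 the TXNIP log2 difference was -0.35, and without UCK2 shRNA replicate 1 it was 1.12. After scaling these were -0.15 and 1.32.

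SGK1 (ENSG00000118515, chromosome 6, 134169246 to 134318112, minus strand) encodes an AKT-related kinase that phosphorylates FOXO3 and is induced by serum and glucocorticoids. It measured 2.18 and 2.16 TPM in UCK2 shRNA replicates 1 and 2, against 2.57 and 2.96 TPM in control replicates 1 and 2. Both UCK2 shRNA values lay below both controls. The SGK1 log2 difference was -0.25 ± 0.29 (SE; limma adjusted p = 0.716; 95% interval -0.93 to 0.44). After scaling it was -0.08 and the groups overlapped, with 2.38 and 2.33 scaled TPM in UCK2 shRNA libraries and 2.17 and 2.95 scaled TPM in control libraries.

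**Figure D2:**
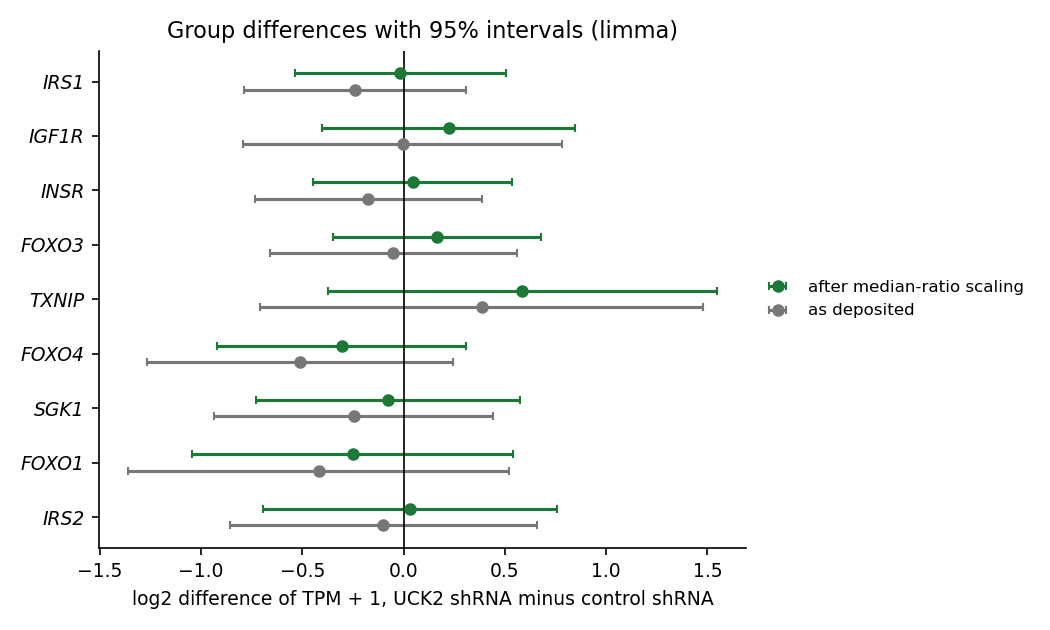
Log2 differences of TPM + 1, UCK2 shRNA minus control shRNA, with 95% limma intervals, after median-ratio scaling (green, upper) and as deposited (grey, lower). All intervals include 0; that of TXNIP is the widest, from -0.37 to 1.55 after scaling.

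For each of the 9 genes, a gap between replicates of 1 group exceeded the scaled difference between the groups, as for 81.2% of all genes. The scaled TXNIP gap between UCK2 shRNA replicates 2 and 1 was 1.47 on the log2 scale, and 99.4% of all genes had a lower value of this gap. The other 8 genes had gaps of -0.18 to 0.42 between these libraries. UCK2 shRNA replicate 2 exceeded replicate 1 for 6 of the 9, against 50.3% of all genes. Between control replicates 1 and 2, the gap of FOXO1 was 0.81 and that of IGF1R 0.75, and 92.9% and 91.5% of all genes had a lower value. FOXO4 followed with 0.47, above 82.2% of genes. FOXO3 had a gap of 0.20, and SGK1 ran the other way with -0.32. Control replicate 1 exceeded replicate 2 for 6 of the 9, against 49.3% of all genes. After scaling, 5 of the 9 genes were highest in UCK2 shRNA replicate 2, 3 in control replicate 1, 1 in control replicate 2 and 0 in UCK2 shRNA replicate 1. Of all genes, 30.0% were highest in UCK2 shRNA replicate 2 and 19.9% in control replicate 1.

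**Figure D3:**
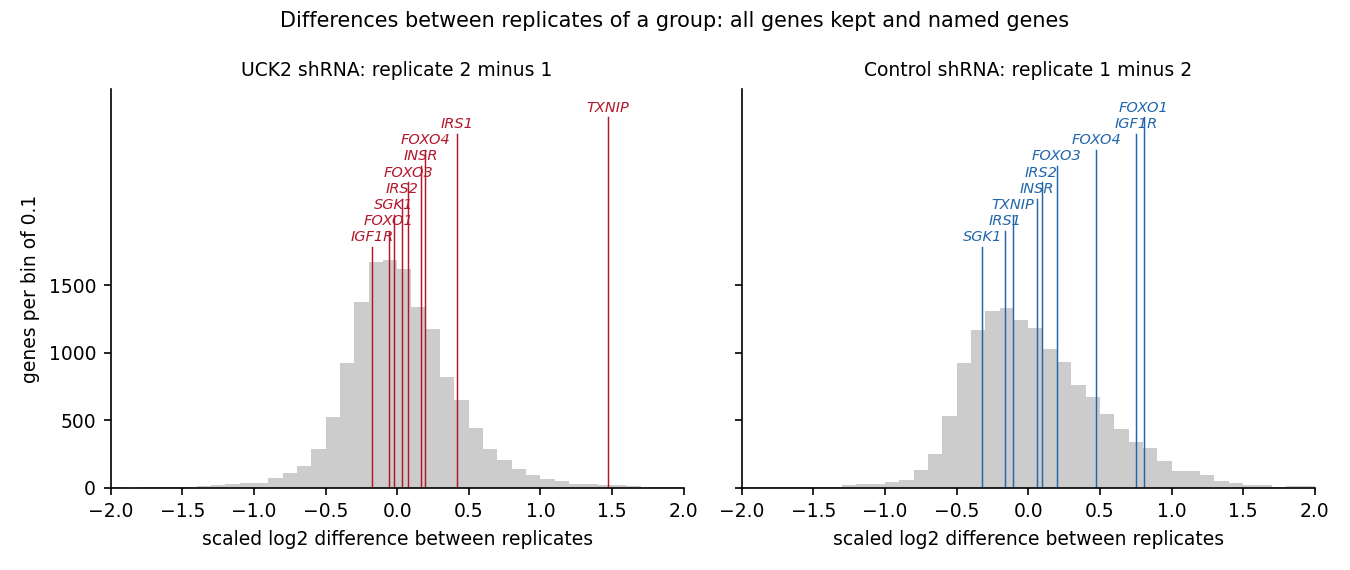
Scaled log2 differences between the 2 replicates of each group: grey bars count genes kept per bin of 0.1, and coloured lines place the 9 genes (UCK2 shRNA left, control shRNA right; values beyond the axis are not drawn, and line heights only separate the names). TXNIP lies far right among UCK2 shRNA libraries at 1.47, and FOXO1 and IGF1R lie right among control libraries at 0.81 and 0.75.

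Ratios of TPM within a library do not depend on scaling. The ratio of FOXO3 to FOXO1 was 4.90 and 5.55 in UCK2 shRNA replicates 1 and 2, against 2.59 and 5.05 in control replicates 1 and 2, so control replicate 1 stood apart. The ratio of FOXO3 to FOXO4 was 2.15 and 1.93 in UCK2 shRNA libraries, against 1.24 and 1.56 in control libraries. These did not overlap. The share of gene pairs with such a ratio was not computed. For single genes, a different measure, 16% were higher and 15.5% lower without overlap after scaling. The ratio of IGF1R to INSR was 1.65 and 1.28 in UCK2 shRNA libraries and 1.64 and 0.982 in control libraries. The ratio of IRS1 to IRS2 was 11.3 and 14.8 in UCK2 shRNA libraries and 12.1 and 15.4 in control libraries. With 2 libraries a group these ratios were not tested.

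ARRDC4, a relative of TXNIP that glucose likewise induces, was looked at beside it after the values were seen. It measured 2.45 and 5.69 TPM in UCK2 shRNA replicates 1 and 2, against 3.86 and 2.52 TPM in control replicates 1 and 2. ARRDC4 was highest in UCK2 shRNA replicate 2, as were 30% of all genes after scaling. Its scaled gap between UCK2 shRNA replicates 2 and 1 was 0.96, where the 95th percentile of all genes was 0.71. For the other arrestin-domain genes of its list, ARRDC1, ARRDC2 and ARRDC3, this gap was -0.25, -0.24 and 0.13. The ratio of TXNIP to ARRDC4 was 1.41 and 1.98 in UCK2 shRNA libraries and 1.25 and 1.78 in control libraries. MLXIPL, which encodes ChREBP, measured 3.96 and 4.89 TPM in UCK2 shRNA libraries and 3.83 and 2.53 TPM in control libraries (scaled log2 difference 0.58, limma adjusted p = 0.918). MLXIP, which encodes MondoA, had a scaled log2 difference of -0.05. A common cause of the TXNIP and ARRDC4 values was not tested.

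The wider pathway was read through 7 lists of genes, and no gene of any list passed the threshold as deposited or after scaling. Counts at an unadjusted p under 0.05 are given as descriptions, beside 3.97% of all genes higher and 1.42% lower after scaling. As deposited, 0 genes of any list were higher at that p. Lower were 2 of 6 ligands and binding proteins, 4 of 10 receptors and adaptors, 3 of 14 inhibitors, 7 of 24 kinases and regulators, 3 of 34 FOXO targets, 4 of 10 TXNIP relatives and 1 of 4 SGK1 substrates, against 14% of all genes. Of ligands and binding proteins, 6 of 11 averaged at least 1 TPM, with 4 of 6 below 0 and a median of -0.08 after scaling; 0 were higher and 1 lower at an unadjusted p under 0.05. The most abundant was IGFBP2, which binds insulin-like growth factors outside the cell. It measured 250.1 and 183 TPM in UCK2 shRNA libraries, against 364 and 378 TPM in control libraries, without overlap (log2 difference -0.79, limma adjusted p = 0.294; scaled -0.55, adjusted p = 0.902). IGFBP6 measured 18.2 and 16.7 TPM in UCK2 shRNA libraries, against 21.2 and 38.9 TPM in control libraries. The ligands themselves were near 0: IGF2 lay at 0.131 to 0.207 TPM, IGF1 at 0.0328 to 0.0736 TPM, and INS was listed at 0 in all 4 libraries.

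Receptors and adaptors had 10 of 13 genes kept, with 8 of 10 below 0 after scaling and a median of -0.15; 0 were higher or lower at an unadjusted p under 0.05 after scaling. SHC1, an adaptor that leads to RAS, measured 280 and 281 TPM in UCK2 shRNA libraries, against 356 and 397 TPM in control libraries (scaled log2 difference -0.18, limma adjusted p = 0.957). GRB2, the adaptor that brings SOS to the receptor, measured 211 and 156 TPM in UCK2 shRNA libraries, against 274 and 302 TPM in control libraries (scaled -0.42, limma adjusted p = 0.955). SH2B2, an adaptor of the insulin receptor, measured 9.56 and 9.94 TPM against 15.4 and 17.5 TPM (scaled -0.47, limma adjusted p = 0.932). These 3 genes were lower without overlap as deposited, as were 44.4% of all genes. After scaling SHC1 overlapped, and 6 of the 10 genes kept were lower and 0 higher without overlap, against 15.5% and 16% of all genes.

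Inhibitors of insulin signalling had 14 of 17 genes kept, of which 7 lay below 0 and 7 above 0 after scaling, with a median of -0.04 and 0 at an unadjusted p under 0.05. INPPL1, the phosphatase SHIP2, measured 171 and 180 TPM in UCK2 shRNA libraries, against 279 and 231 TPM in control libraries (scaled log2 difference -0.29). PTPRF, a receptor tyrosine phosphatase, had a scaled log2 difference of -0.37, and PTPN2, a tyrosine phosphatase, had 0.44 (limma adjusted p = 0.951 and 0.955). Kinases and regulators of FOXO proteins had 24 of 27 genes kept, with 14 of 24 below 0 after scaling, a median of -0.04 and 0 at an unadjusted p under 0.05. YWHAZ, a 14-3-3 protein, measured 597 and 542 TPM in UCK2 shRNA libraries, against 733 and 667 TPM in control libraries (scaled -0.06). The 14-3-3 gene SFN had a scaled log2 difference of -0.46, and MDM2, a ubiquitin ligase, had 0.41 (limma adjusted p = 0.955 each).

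FOXO target genes were listed by 43 symbols, of which G6PC1 and SELENOP are newer names of G6PC and SEPP1. Of the 41 with a row, 34 were kept, and 17 lay below 0 and 17 above 0 after scaling, with a median of -0.01, that of all genes. At an unadjusted p under 0.05 after scaling 3 were higher and 0 lower: RICTOR, PCK2 and BNIP3L, the last of them named after its value was seen. RICTOR, a subunit of the kinase complex that phosphorylates AKT, measured 4.90 and 7.64 TPM in UCK2 shRNA replicates 1 and 2, against 5.75 and 2.32 TPM in control replicates 1 and 2 (scaled log2 difference 0.80, limma adjusted p = 0.902). PCK2, the mitochondrial phosphoenolpyruvate carboxykinase, measured 18.1 and 28.2 TPM in UCK2 shRNA libraries, against 16.9 and 18.01 TPM in control libraries (scaled 0.58, limma adjusted p = 0.915). For both, UCK2 shRNA replicate 2 was the highest library, as it was for 30% of all genes after scaling. Both were picked by the size of their scaled difference, so this is not a separate result. BNIP3L, a mitophagy receptor, had a scaled log2 difference of 0.50 (limma adjusted p = 0.902). EIF4EBP1, a translation repressor and the most abundant of the list, had 0.01.

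The list of TXNIP control and relatives had 10 of 11 genes kept, with 6 of 10 below 0 after scaling, a median of -0.06, and 0 higher and 1 lower at an unadjusted p under 0.05. The lower one was ARRDC1, another arrestin-domain gene, at 37.1 and 31.4 TPM in UCK2 shRNA libraries, against 65.4 and 54.4 TPM in control libraries (scaled log2 difference -0.55, limma adjusted p = 0.817). ARRDC2 had a scaled log2 difference of -0.25, and TXNRD1, thioredoxin reductase and the most abundant of the list, had -0.22. SGK1 substrates had 4 of 4 genes kept, with 3 of 4 below 0 after scaling, a median of -0.19 and 0 at an unadjusted p under 0.05. NDRG1, which SGK1 phosphorylates, had a scaled log2 difference of 0.08, SCNN1A, a sodium channel subunit, had -0.43, and NDRG2 had -0.28.

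**Figure D4:**
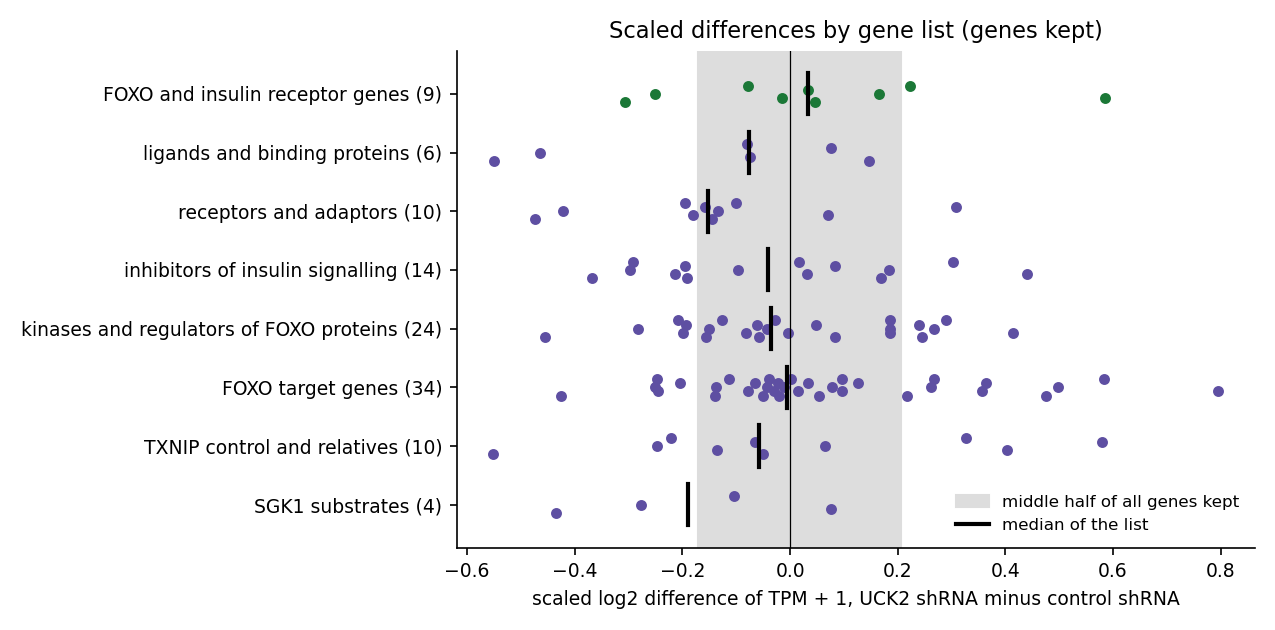
Scaled log2 differences of TPM + 1, UCK2 shRNA minus control shRNA, 1 point per gene kept (number in brackets), by list; black bars are list medians and the grey band runs from -0.17 to 0.21, the 25th to the 75th percentile of all genes kept. Medians run from -0.19 for the SGK1 substrates to 0.03 for the FOXO and insulin receptor genes.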

How the data were processed

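The table holds TPM per gene and library as deposited by the authors, with Ensembl identifiers, symbols and hg38 positions. Per the submitters' processing notes, hg38 and the tools HTSeq, edgeR, DESeq and TopHat2 (2.0.14) are named; their roles and read filters are not given in the sources used here. Read depth cannot be had from TPM. Libraries were grouped by title, and no 2 libraries shared an identical value above 0.

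Genes averaging at least 1 TPM over the 4 libraries were kept (14038). R 4.3.3 and limma 3.58.1 (lmFit, then eBayes with trend) gave two-sided tests on log2(TPM + 1). P-values were adjusted by Benjamini-Hochberg across the 14038 genes, at a threshold of 0.05. The fit was tested on simulated data. Median-ratio scaling divided the UCK2 shRNA libraries by 0.918 and 0.928 and the control libraries by 1.19 and 1.00. Other scalings, pseudocounts, filters and variance models, the replicate block and leaving out each library were tried. The genes and lists were chosen with earlier results of these data known. All 9 genes with a row are named, with UCK2. In each wider list the rule named the most abundant gene and the 2 with the largest scaled change among those averaging at least 5 TPM; other names were chosen after their values were seen. Promoters came from RefSeq, and figures were drawn with matplotlib 3.10.9.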

Additional observations from a re-analysis of the deposited data

How the results depend on the processing

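None of the 9 genes passed the threshold under any of the 12 alternatives, with a lowest adjusted p of 0.257, of FOXO4 without control replicate 2. In the 4 alternatives that leave out a library, the lone library of its group is assumed to vary like the other group, so these p-values say nothing of stability. Over all genes, 9 were called higher with median-ratio scaling and 8 with quantile normalization. Leaving out 1 library gave 0 to 242 genes higher and 0 to 108 lower, the highest counts without control replicate 1. With the replicate block, where limma is left with 1 residual degree of freedom, 29 were higher and 10 lower. The labels do not say that replicate numbers pair libraries, and the deviations of same-numbered libraries correlated at -0.21 across genes, which are not independent.

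The median log2 difference of the 9 genes was 0.0326 with median-ratio scaling, 0.10 with sum scaling, and -0.27 to 0.015 when 1 library was left out. Values turned sign from those as deposited with median-ratio scaling for FOXO3 (0.16), IRS2 (0.0326), INSR (0.0458) and IGF1R (0.22). They did so with sum scaling for FOXO3 (0.28), IRS1 (0.10), IRS2 (0.10), INSR (0.16), IGF1R (0.34), SGK1 (0.014) and UCK2 (0.0485). With quantile normalization they did so for FOXO3 (0.0706), IGF1R (0.17) and UCK2 (0.0592), and with a pseudocount of 0.1 for IGF1R (5.5e-05). The cause of these sign changes was not tested.

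Leaving out 1 library gave log2 differences of -0.92 to 0.0788 for FOXO1, -0.26 to 0.16 for FOXO3, -0.85 to -0.17 for FOXO4, -0.46 to -0.03 for IRS1, -0.32 to -0.03 for INSR, -0.32 to -0.17 for SGK1, -0.22 to 0.015 for IRS2, -0.50 to 0.48 for IGF1R, -0.35 to 1.12 for TXNIP and -0.72 to 0.10 for UCK2. On scaled values, an alternative added after seeing the data, the ranges were -0.65 to 0.15 for FOXO1, 0.06 to 0.26 for FOXO3, -0.54 to -0.07 for FOXO4, -0.22 to 0.19 for IRS1 (0.0649 without control replicate 2), -0.014 to 0.0789 for IRS2, -0.0383 to 0.13 for INSR, -0.15 to 0.60 for IGF1R, -0.15 to 1.32 for TXNIP, -0.24 to 0.0824 for SGK1 and -0.49 to 0.34 for UCK2 (0.0703 without control replicate 1). FOXO1, IRS2 and SGK1 average under 5 TPM and had no value with the stricter filter.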

Other observations

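Of the relatives of SGK1, SGK2 was the more abundant in every library; both relatives were looked at after their values were seen. SGK2 measured 53.7 and 40.5 TPM in UCK2 shRNA replicates 1 and 2, against 65.1 and 55.8 TPM in control replicates 1 and 2, where SGK1 lay at 2.16 to 2.96 TPM on the same scale. SGK3 measured 3.57 and 4.22 TPM in UCK2 shRNA libraries, against 7.02 and 2.67 TPM in control libraries, the last of these below SGK1 in the same library. After scaling SGK3 was highest in control replicate 1, as were 19.9% of all genes. Of the AKT kinases, AKT2 averaged 121 TPM over the 4 libraries and AKT1 62.9 TPM.

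The gluconeogenic FOXO targets of hepatocytes were at or near 0. G6PC, the catalytic subunit of glucose-6-phosphatase, lay at 0.0546 and 0.0379 TPM in UCK2 shRNA libraries and at 0.169 and 0 TPM in control libraries. PCK1, the cytosolic phosphoenolpyruvate carboxykinase, was listed at 0 in 3 libraries and at 0.0106 TPM in UCK2 shRNA replicate 2, while the mitochondrial form PCK2 averaged 20.3 TPM. IGFBP1, a FOXO target of liver, measured 26.0 and 41.03 TPM in UCK2 shRNA libraries, against 29.1 and 41.4 TPM in control libraries. Its groups overlapped, and each group held 1 higher and 1 lower library. FOXO6 lay at 0.0713 to 0.16 TPM.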
